A study of Mus musculus with 14 samples.

Results

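The miRNAs examined here were miR-10a, miR-10b and miR-196b, which lie in the Hox gene clusters. They were chosen by the identifier of their TaqMan assay (‘387’ for miR-10a, ‘2218’ for miR-10b and ‘2215’ for miR-196b) and make up 3 of the 516 assays in the deposited value table. The table carries assay numbers without miRNA names, so the names follow the assay numbers of the selection rule, and all 3 names occur in the layout of card A. Other miRNAs of the Hox clusters are also named in the card layouts: miR-615-3p, miR-615-5p, miR-10a*, miR-10b* and miR-196a*. No values were assigned to them here. The study followed mouse lung development in the outbred ICR strain, with RNA of whole lungs that were pooled. Per the labels the samples were female at each age. The methods mention female mice only as those bred for timed pregnancies, so the sex of the embryos and pups is not established. Each age had 2 samples, 14 in all: 4 embryonic ages (E12, E14, E16 and E18, in days of gestation), 2 postnatal ages (P2 and P10, in days after birth) and adult lung. The labels name no transgene, mutation or treatment in any group. The labels do not say whether the 2 samples of an age came from separate pools, so any p-value reflects the spread of the samples at hand, and that spread may be technical.

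A miRNA is a short RNA that guides the silencing of messenger RNAs, chiefly through its seed, the bases near its 5′ end that pair with the target. The Hox clusters hold the transcription factor genes that set position along the body axis, and miR-10 and miR-196 genes lie inside them. Both families are known to have Hox messenger RNAs among their targets, and some Hox genes are transcribed in the mesenchyme of the developing lung. In whole-lung RNA, fewer cells of a type and less RNA per cell cannot be told apart.

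The mature sequences are shown because the 2 miR-10 miRNAs are almost the same molecule, which matters for reading their assays side by side. They are from RefSeq (build GRCm38.p6), 5′ to 3′, with the seed (bases 2 to 8) in capitals.
miR-10a: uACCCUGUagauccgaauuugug
miR-10b: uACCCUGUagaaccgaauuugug
miR-196b: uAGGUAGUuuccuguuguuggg
miR-196a: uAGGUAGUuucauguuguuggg
Counted from the 5′ end, miR-10a and miR-10b differ by 1 base of 23 (U12A), and miR-196b differs from its relative miR-196a by 1 base of 22 (C12A). Both differences lie outside the seed. Of 1679 mature mouse miRNAs in RefSeq, the seed ACCCUGU was carried by 2, miR-10a and miR-10b. The seed AGGUAGU was also carried by 2, miR-196a and miR-196b. miR-196a is given for its sequence alone, since its name was not found on either card and no value was assigned to it. How far each miR-10 assay reads the other miRNA was not tested.

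The mature miR-10a lies at chr11:96317186-96317208 on the plus strand, within the span of Hoxb3, with Hoxb4 as the nearest Hox gene beside it. The mature miR-10b lies at chr2:74726074-74726096 on the plus strand, within the spans of Hoxd3 and Hoxd4. The mature miR-196b lies at chr6:52230129-52230150 on the minus strand, between Hoxa9 and Hoxa10 and within no Hox gene. The 3 miRNAs thus come from 3 different Hox clusters on 3 chromosomes.

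Values are ΔCT, the threshold cycle (CT) of an assay less the CT of the small nuclear RNA U6. The scale runs downwards: the more of a miRNA there is, the lower its ΔCT, by 1 cycle per doubling if amplification is perfect. Log2 differences below are differences in level, so a positive one is a higher level at the later age. Between 272 and 335 assays were measured per sample, and 219 were measured in all 14. The mean ΔCT of those 219 assays ran between 9.94 in E18 replicate 1 and 11.63 in E12 replicate 1, so values scaled to U6 carry a shift shared by most assays. The differences between the 3 miRNAs within a sample lay within 0.1 cycle of a whole number in all 14, 8 and 8 samples where each pair was measured. The values of these 3 miRNAs thus resolve about 1 cycle relative to each other. Gaps between the E18 replicates also lay near whole cycles for many other assays, so such steps are not particular to these 3.

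miR-10a was measured in all 14 samples and was among the steadier assays. Its ΔCT was 10.0 and 9.15 at E12, 10.2 and 10.1 at E14, 10.1 and 9.22 at E16, and 9.07 and 10.1 at E18. After birth it was 11.2 and 10.3 at P2, 10.1 and 10.1 at P10, and 9.13 and 10.2 in adult lung. The whole range was 2.10 cycles (4.28-fold), and 185 of the 219 complete assays had a wider one, with a median range of 3.12 cycles. P2 replicate 1 had the lowest level, 0.90 cycles below P2 replicate 2, and all other samples lay between 9.07 and 10.3. The median of the 282 assays measured in both P2 samples was also 0.90 cycles lower in level in replicate 1. That gap was therefore shared by the typical assay.

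Ordered by mean level, miR-10a stood highest at E12 (9.59 ± 0.61), E18 (9.59 ± 0.72), adult (9.65 ± 0.73) and E16 (9.66 ± 0.62), followed by P10 (10.1 ± 0.0019), E14 (10.2 ± 0.070) and P2 (10.7 ± 0.64; mean ΔCT ± SD, n = 2 each). Neighbours in this order overlapped or lay within 1 cycle of each other. The gap between replicates of miR-10a was 0.0027 cycles at P10 and 0.099 at E14, and 0.86 to 1.04 at the other ages. A small SD may therefore mean only that both samples fell on the same 1-cycle step. The same limit applies to the small adult SDs of miR-10b and miR-196b given below. In each sample between 17.8% and 35.9% of the measured assays had a lower ΔCT than miR-10a. This places it in the upper part of the signal, though a ΔCT is not a molar amount and depends on each assay's efficiency.

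miR-10b was also measured in all 14 samples, and it varied far more than miR-10a. Its ΔCT was 12.1 and 13.2 at E12, 12.3 and 13.2 at E14, 13.1 and 11.3 at E16, and 10.1 and 17.1 at E18. After birth it was 16.2 and 17.3 at P2, 15.1 and 13.1 at P10, and 12.1 and 12.2 in adult lung. The range was 7.18 cycles, or 145-fold, and 7 of the 219 complete assays had a wider one. The highest level of the series was thus in one E18 sample, and the level in the other E18 sample was next to the lowest.

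By mean ΔCT ± SD (n = 2 each), miR-10b was highest in adult lung (12.2 ± 0.046) and at E16 (12.2 ± 1.31), followed by E12 (12.6 ± 0.79), E14 (12.7 ± 0.64), E18 (13.6 ± 4.95), P10 (14.1 ± 1.45) and P2 (16.8 ± 0.77). Neighbours in this order overlapped up to P10, whereas P2 lay below P10 with no overlap. P2 also lay below E12, E14, E16 and adult lung with no overlap, while E18 replicate 2 lay between the 2 P2 samples. The E18 mean falls between its 2 samples at a level neither of them had.

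**Figure D1:**
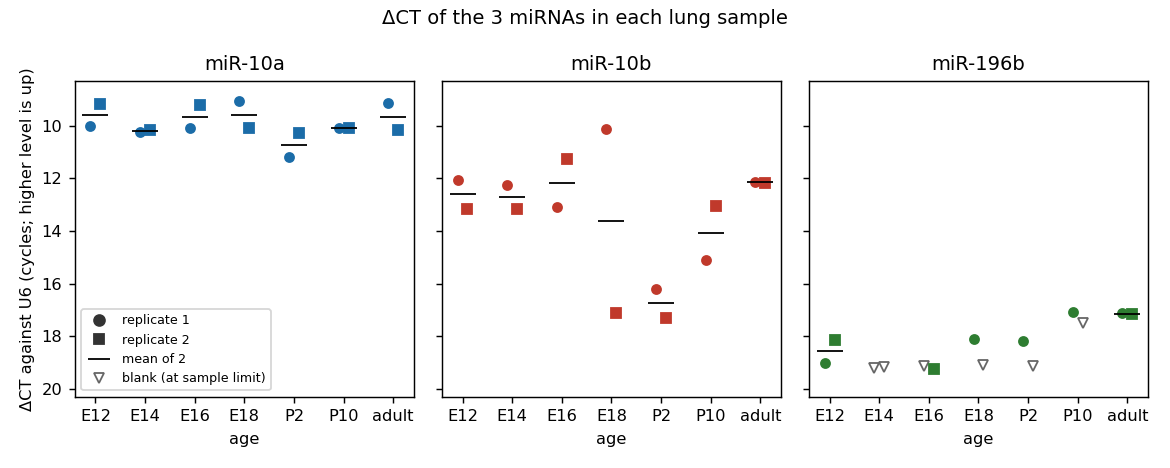
ΔCT against U6 in cycles (vertical axis, turned so that a higher level is up) of miR-10a, miR-10b and miR-196b at each age (horizontal axis), with a circle for replicate 1, a square for replicate 2 and a bar for the mean where both were measured. Open triangles mark blanks, drawn at the highest ΔCT measured for any assay in that sample. miR-10a stays between 9.07 and 11.2, miR-10b runs between 10.1 and 17.3 with its 2 E18 samples far apart, and miR-196b lies between 17.1 and 19.2 where it was measured.

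The gap of miR-10b between the E18 samples was the largest between replicates in the series. Its ΔCT was 7.01 cycles higher in E18 replicate 2 than in E18 replicate 1. No other of the 300 assays measured in both E18 samples had a gap this large, nor did any other of the 2030 replicate pairs over the 7 ages. The median absolute gap at E18 was 0.62 cycles. miR-10a differed by 1.02 cycles between the same samples, and 93 of the 300 assays differed by at least that much. By their other assays these samples were close: 325 assays were measured in replicate 1 and 318 in replicate 2, and their mean ΔCT over the complete assays was 9.94 and 10.37. Among the assays measured in each, 45.2% had a higher level than miR-10b in replicate 1, and 94.7% in replicate 2.

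**Figure D2:**
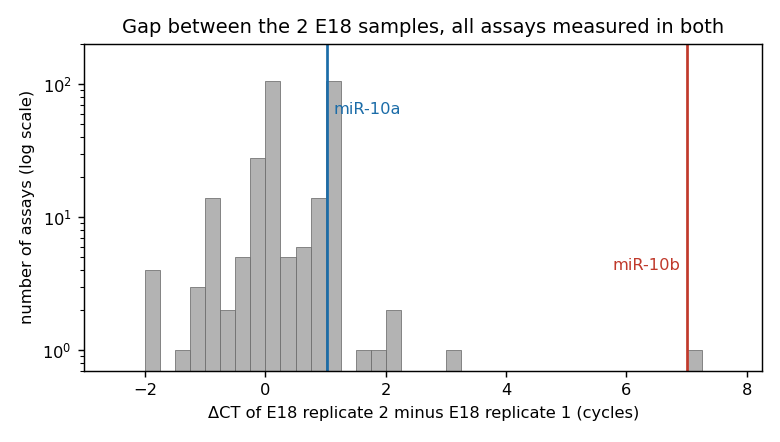
Number of assays (vertical axis, log scale) by the ΔCT of E18 replicate 2 minus that of E18 replicate 1 in cycles (horizontal axis), over the 300 assays measured in both. The lines mark miR-10a at 1.02 cycles and miR-10b at 7.01 cycles, which stands alone at the right end.

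Replicates of miR-10b were also apart at P10, by 2.05 cycles, which 4 of 262 assays reached, miR-10b among them. At E16 they were apart by 1.85 cycles, which 14 of 316 assays reached. In adult lung the gap was 0.065 cycles. Over all ages the residual SD within ages was 2.07 for miR-10b, 0.56 for miR-10a and 1.03 for miR-196b, against a median of 0.55 over 350 assays, and 29 assays had a larger one than miR-10b.

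The level of miR-10b moved with the day on which the card A run file was last changed, as its header gives it. This day is called the run day below, though it may not be the day of the PCR. All 3 miRNAs are on card A, and its 14 run files fell on 7 days. The ΔCT of miR-10b was 12.1 to 13.2 on the first day, which held both E12 samples and E14 replicate 1, and 13.2 on the second, which held E14 replicate 2. It was 10.1 to 13.1 on the third, which held both E16 samples and E18 replicate 1. It was 16.2 to 17.1 on the fourth, which held E18 replicate 2 and P2 replicate 1. On the fifth day, which held P2 replicate 2 and P10 replicate 1, it was 15.1 to 17.3. It was 12.1 to 13.1 on the sixth, which held P10 replicate 2 and adult replicate 1, and 12.2 on the seventh, which held adult replicate 2. All values above 15 therefore came from the fourth and the fifth day. On those days miR-10a had 10.1 to 11.2, against 9.07 to 10.2 on the others. Run day and age overlap in most samples and cannot be told apart by these levels alone.

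Within a day, on 1 sample of each age, the direction at birth was the other way round. On the fourth day P2 replicate 1 had a ΔCT of 16.2 and E18 replicate 2 had 17.1, so the log2 difference in level, P2 minus E18, was 0.92 for miR-10b, while over all 4 samples it was -3.13. A limma fit with the run day as a fixed term, chosen after the data were seen, gave 0.92 ± 1.26 (adjusted p = 0.669), with few degrees of freedom left. Of the 6 successive steps, 5 had such a shared day. The other same-day differences of miR-10b were 0.36 for E14 against E12, 2.06 for E18 against E16, 2.19 for P10 against P2 and 0.94 for adult against P10. Each rests on 1 or 2 samples per age, and none passed in the fit with the run day. For miR-10a the same-day differences were -0.66, 0.58, -1.07 for P2 against E18, 0.19 and 0.95, and the one at birth kept the sign that it had over all samples.

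**Figure D3:**
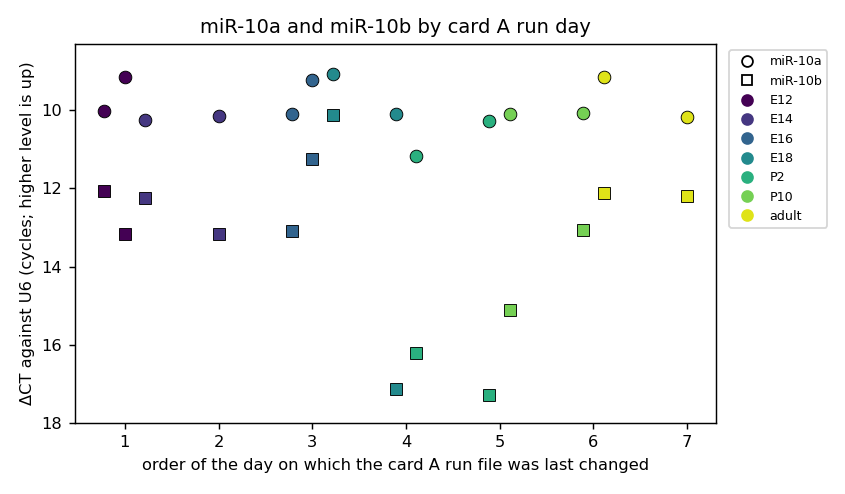
ΔCT against U6 in cycles (vertical axis, higher level up) of miR-10a (circles) and miR-10b (squares) in the 14 samples, by the order of the day on which the card A run file was last changed (horizontal axis), with the age in colour. The miR-10b values of the fourth and the fifth day lie between 15.1 and 17.3 and those of the other days between 10.1 and 13.2, while miR-10a stays between 9.07 and 11.2.

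miR-196b was near the limit of detection. It was measured in 8 of 14 samples. Its ΔCT was 19.0 and 18.1 at E12, 19.2 in E16 replicate 2, 18.1 in E18 replicate 1, 18.2 in P2 replicate 1, 17.1 in P10 replicate 1, and 17.1 and 17.2 in adult lung. Both E14 samples and 1 sample each of E16, E18, P2 and P10 were blank. Of the 397 assays measured in any sample, 91 were measured in fewer than 8 and 12 in exactly 8. Where it was measured, at least 93.1% of the assays in that sample had a higher level, and in E16 replicate 2 it was the assay with the lowest level of all.

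The 2 adult samples lay above the 2 E12 samples, with 17.1 ± 0.035 in adult lung and 18.6 ± 0.62 at E12 (mean ΔCT ± SD, n = 2 each). Both E14 samples were blank. With each of them placed at the highest ΔCT it gave for any assay (19.2 in both), the level in adult lung was 4.10-fold higher than at E14. That placement is not a measured detection limit of the miR-196b assay, so it sets no firm bound. For P10 replicate 2 such a placement says little, since its highest measured ΔCT was 17.5 and P10 replicate 1 had 17.1 for miR-196b. Among measured samples, the 4 postnatal ones had 17.1 to 18.2 and the 4 embryonic ones 18.1 to 19.2, and the 2 sets overlapped only through P2 replicate 1 (18.2) and the embryonic values of 18.1.

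The ages were compared with limma (moderated variance, each age given its own mean, p-values adjusted by Benjamini-Hochberg over 350 assays, those for which some age had both samples measured). Blanks were set to the highest deposited ΔCT, 19.9. In an F test of any change along the 6 steps between ages, 56.9% of the 350 assays passed an adjusted p of 0.05, and none of the 3 miRNAs did. The adjusted p was 0.414 for miR-10a, 0.299 for miR-10b and 0.25 for miR-196b. None of them passed in any of the 10 single comparisons either. The shares of all assays that passed were 1.71% for E14 against E12, 0.857% for E16 against E14, 5.71% for E18 against E16, 23.1% for P2 against E18, 10.0% for P10 against P2 and 6.57% for adult against P10. They were 48.0% for adult against E12, 32.0% for E18 against E12, 34.6% for adult against E18 and 55.7% for the 6 postnatal against the 8 embryonic samples. At an unadjusted p under 0.05, 0 of the 33 tests of the 3 miRNAs passed in this limma fit.

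For miR-10a the log2 difference in level between adult and E12 lung was -0.07 ± 0.56 (SE), with a 95% interval from -1.33 to 1.19 and an adjusted p of 0.967 by limma. The data therefore leave room for a change of about 1 cycle in either direction. At birth, P2 minus E18 was -1.13 ± 0.56 (adjusted p = 0.158), beside a median of -1.13 over all 350 assays. Without E18 replicate 1 it was -0.62 and without E18 replicate 2 -1.65, and without P2 replicate 1 it was -0.68 and without P2 replicate 2 -1.58. E18 minus E12 was 0.00 (95% interval -1.26 to 1.26) while the median assay was 0.99 higher at E18. Relative to the mean of the 219 complete assays, E18 minus E12 for miR-10a was -1.37 ± 0.40 (adjusted p = 0.0331 by limma), while the median of the 350 assays was -0.38 with that scaling. With that scaling 27.1% of assays passed in the same comparison, and this was 1 of the 33 tests of the 3 miRNAs with that scaling, the only one that passed.

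For miR-10b the largest step under U6 scaling was at birth, with P2 minus E18 at -3.13 ± 1.85 (adjusted p = 0.226) and a 95% interval from -7.33 to 1.07. The median over all 350 assays was -1.13 at that step. It was followed by P10 minus P2 at 2.66 ± 1.85 (adjusted p = 0.401) and adult minus P10 at 1.93 ± 1.85 (adjusted p = 0.602). Relative to the mean of the complete assays, birth was not the largest step. P2 minus E18 was then -2.01 ± 1.81, beside -2.23 for E18 minus E16, 2.34 for P10 minus P2 and 2.09 for adult minus P10. Adult minus E12 was 0.45 ± 1.85 (95% interval -3.75 to 4.65, adjusted p = 0.884 by limma). The 6 postnatal minus the 8 embryonic samples gave -1.55 ± 1.00 (adjusted p = 0.212), with ΔCT of 12.1 to 17.3 (median 14.1) in the postnatal samples and 10.1 to 17.1 (median 12.7) in the embryonic ones.

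Those results for miR-10b turned on which E18 sample was kept. Without E18 replicate 2, P2 minus E18 was -6.63 ± 1.06 (adjusted p = 0.00872 by limma, with 17.7% of assays called), and the difference between the 6 postnatal and 7 embryonic samples was -2.43 ± 0.49 (adjusted p = 0.00356, 56.3% called). Without E18 replicate 1, E18 minus E12 was -4.52 ± 1.06 (adjusted p = 0.0236, 18.3% called) and adult minus E18 was 4.97 ± 1.06 (adjusted p = 0.0105, 24.0% called). The F test over the ages passed in both cases, with an adjusted p of 0.00888 without replicate 2 (56.6% called) and 0.00847 without replicate 1 (50.0% called). In the first case the low level began at P2, and in the second at E18. The fits without 1 E18 sample assume that the remaining E18 sample varies like the samples of the other ages. With all 14 samples, the test over the 219 complete assays also passed for miR-10b (adjusted p = 0.00196 by limma), in a set where 88.1% did. The differences themselves were unchanged there. The SE of P2 minus E18 was 1.05, against 1.85 over the 350 assays and 2.07 without moderated variance.

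For miR-196b, adult minus E12 was 1.43 ± 0.94 (95% interval -0.71 to 3.57, adjusted p = 0.242 by limma), or 2.69-fold. The same difference passed when blanks were set to the highest ΔCT of their own sample (adjusted p = 0.0363, 46.3% of assays called) or left missing (adjusted p = 0.0426, 53.0% called). Its value did not change, since all 4 samples were measured. Adult minus E18 was 1.82 ± 0.94 (adjusted p = 0.172) with E18 replicate 2 at the common floor. It was 0.94 without that blank sample and 2.71 without E18 replicate 1, neither of which passed. The 6 postnatal samples were higher than the 8 embryonic ones by 1.03 ± 0.51 (adjusted p = 0.115), with 2 and 4 blanks at the floor. With the floor set per sample, adult minus E18 was 1.45 (adjusted p = 0.0439 by limma, 33.1% called), postnatal minus embryonic was 1.19 (adjusted p = 0.00358, 52.6% called) and the F test over the ages had an adjusted p of 0.0179 (56.0% called), so these calls depend on where the blanks are placed. With the card A run day as a fixed term, adult minus E18 was 7.18 ± 1.16 (adjusted p = 0.0674) and P2 minus E18 was 1.67 ± 0.67 (adjusted p = 0.231), against -0.05 ± 0.94 without that term. That fit rests on blanks at the floor in E18 replicate 2, P2 replicate 2 and P10 replicate 2. The 7.18 exceeds the span between the lowest measured ΔCT of miR-196b, 17.1, and the floor, 19.9. It is therefore not a usable estimate of a change in level.

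**Figure D4:**
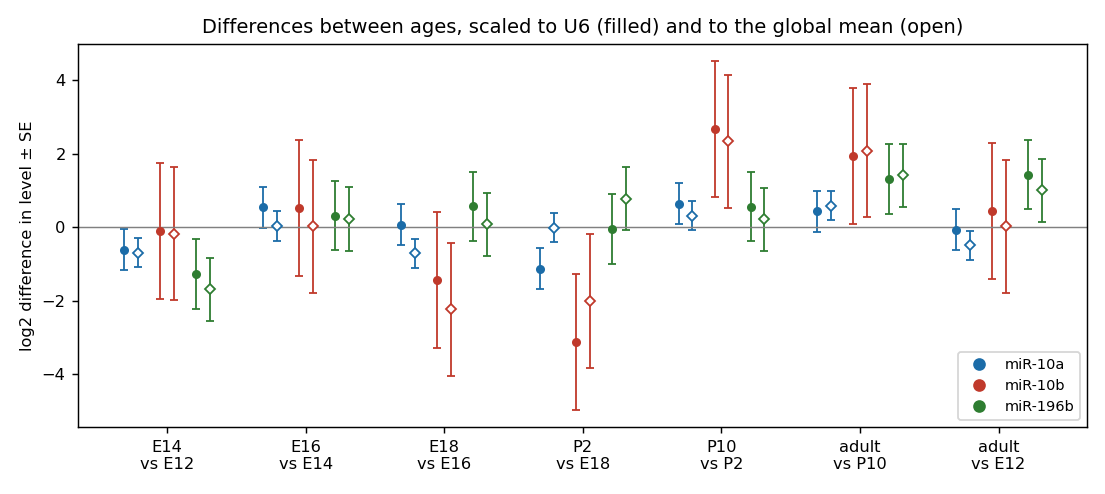
Log2 difference in level ± SE from limma (vertical axis) for the 6 successive steps and for adult against E12 (horizontal axis, later age first in each label), for miR-10a, miR-10b and miR-196b in colour, scaled to U6 (filled) and to the mean of the complete assays (open). The intervals of miR-10b are wider than those of miR-10a, with SE of 1.85 and 0.56 under U6.

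The miRNAs were also compared with each other within each sample, where U6 and any other scaling cancel. The level of miR-10b minus that of miR-10a was -2.03 and -4.01 at E12, -2.01 and -3.01 at E14, -3.01 and -2.03 at E16, and -1.04 and -7.03 at E18. It was -5.03 and -7.03 at P2, -5.03 and -2.98 at P10, and -2.99 and -2.02 in adult lung. The adult values were among the E12 to E16 ones. The lowest step, -7.03, was shared by P2 replicate 2 and E18 replicate 2, and the next, -5.03, by P2 replicate 1 and P10 replicate 1. The mean was -4.18 ± 1.85 in the 6 postnatal samples and -3.02 ± 1.85 in the 8 embryonic ones (SD), a difference of -1.16 (two-sided exact permutation test over 3003 regroupings, p = 0.303, or 0.303 after Benjamini-Hochberg adjustment over the 3 pairs). The difference was -1.73 without E18 replicate 2 (exact p = 0.0519) and -0.59 without P2 replicate 2 (exact p = 0.608).

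miR-196b minus miR-10a was measured in 8 samples. It was -7.01 at P2, -6.99 at P10 and -7.99 and -7.00 in adult lung, against -9.00 and -8.98 at E12, -10.0 at E16 and -9.01 at E18. The 4 postnatal samples in which miR-196b was measured all lay above the 4 such embryonic ones. The means were -7.25 ± 0.49 after birth and -9.25 ± 0.51 before (SD, n = 4 each), a difference of 2.00 cycles. The two-sided exact permutation test gave p = 0.0286, the smallest that 70 regroupings allow, and 0.0857 after adjustment over the 3 pairs, so it did not pass once corrected. The 6 blank samples take no part in it, so the separation holds only where miR-196b was detected. Of the blanks, P2 replicate 2 had a highest measured ΔCT of 19.1 and a miR-10a ΔCT of 10.3. For that sample a difference among the embryonic ones is therefore not excluded. The card A run files of the 4 embryonic samples fell on the first and the third day. Those of the 4 postnatal samples fell on the fourth to the seventh. Run day and birth therefore cannot be told apart here or for miR-196b minus miR-10b, which has the same samples.

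miR-196b minus miR-10b was -1.98 at P2, -1.95 at P10 and -4.998 and -4.98 in adult lung, against -6.96 and -4.97 at E12, -7.98 at E16 and -7.97 at E18. The means were -3.48 ± 1.75 after birth and -6.97 ± 1.42 before (SD, n = 4 each), a difference of 3.49 (two-sided exact permutation test, p = 0.0857, or 0.129 adjusted over the 3 pairs). The E12 replicate 2 value lay above both adult values, so the 2 sets overlapped.

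**Figure D5:**
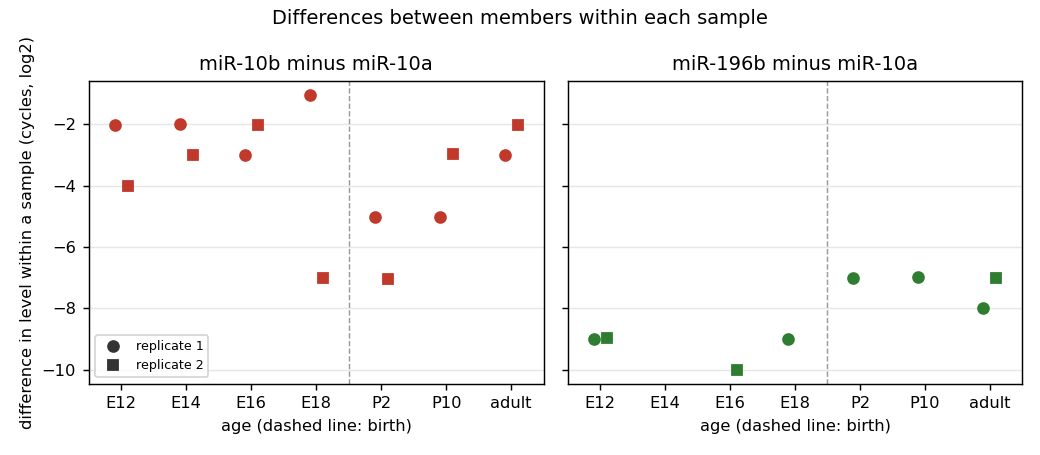
Difference in level between 2 miRNAs of the same sample in cycles (vertical axis, log2) at each age (horizontal axis), with circles for replicate 1, squares for replicate 2 and a dashed line at birth. miR-10b minus miR-10a (left) runs between -7.03 and -1.04. miR-196b minus miR-10a (right), where both were measured, lies between -7.99 and -6.99 in 4 postnatal samples and between -10.0 and -8.98 in 4 embryonic ones.

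The assay whose 7 age means were most like those of each miRNA was sought among the 217 other assays measured in all samples. For miR-10a it was assay 2517 (Pearson r = 0.88 over the 7 age means and 0.67 over the 14 samples), with mean ΔCT of 13.1 at E12, 14.2 at E14, 13.2 at E16, 13.1 at E18, 14.3 at P2, 14.1 at P10 and 13.7 in adult lung. For miR-10b it was assay 2270 (r = 0.81 over the 7 ages and 0.58 over the samples). That assay was also lowest in level at P2, with a ΔCT of 13.7 and 13.1, but its E18 samples were close, at 11.2 and 11.9, so it does not share the gap of miR-10b. For miR-196b, with blanks at the floor, it was assay 2571 (r = 0.94 over the 7 ages), which had a ΔCT of 10.1 and 11.1 in adult lung and 14.0 and 14.1 at E12. These correlations are descriptions over points that share samples and the U6 value, and the assays were picked for the likeness. The files do not pair these assay numbers with names.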

How the data were processed

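The authors reverse transcribed total RNA of pooled lungs with a multiplex rodent primer pool, ran TaqMan Low Density Array cards A and B, and deposited ΔCT against U6, which their methods import as log2 values. The methods set undetermined reactions to an upper CT limit, whereas the deposited table leaves 2888 of 7224 cells blank. CT and U6 values were not used here. The 28 run files hold layouts and header days, not levels. Assay numbers were matched to the 3 miRNAs by the selection rule.

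Level was minus ΔCT. Of E14 replicate 2, 5 values (under 0.001) were treated as missing. Blanks were set to a ΔCT of 19.9, the highest deposited. The fit took the 350 assays for which some age had both samples measured, the 3 miRNAs among them. It used limma 3.58.1 (R 4.3.3) and all 14 samples, after the script was tested on simulated data. Differences between miRNAs within samples were tested by exact permutation. No depth exists for these values, and 2 samples per age limit the precision. The named assays were the 3 miRNAs and, for each, the assay with the most similar age means. The miRNAs, tests and alternatives were chosen with earlier results of these data known. Alternatives were the scaling, the filter, the floor, missing blanks, the ordinary analysis of variance, a variance trend, a replicate block, the card A run day and leaving out each sample. Sequences and positions are from RefSeq (GRCm38.p6), in which all 3 miRNAs were matched.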

Additional observations from a re-analysis of the deposited data

Results flagged for a closer look

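In the 8 embryonic samples, the ΔCT of miR-10b in E18 replicate 2, 17.1, stood apart from the other 7, of which the nearest was 13.2. Its card A run file was last changed on the fourth day, as was that of P2 replicate 1. Among the 4 postnatal samples in which miR-196b was measured, P2 replicate 1 stood apart at 18.2, with the others between 17.1 and 17.2. For miR-196b minus miR-10a, adult replicate 1 stood apart among the 4 postnatal samples at -7.99, and E16 replicate 2 among the 4 embryonic samples at -10.0. The last 3 are 1-cycle steps in values that fall on whole cycles, where the other samples share a step. In all, 12 groups were examined and 4 had such a sample, where chance alone is set to give about 1 in 20.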

How the results depend on the processing

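Of 792 recomputed values of 36 results, 775 kept their side of the threshold and 17, all from results that had not passed, now passed. The threshold was on the adjusted p, except for the within-sample differences, where it was on the exact p without adjustment. By that count miR-196b minus miR-10a had passed, though it did not after adjustment over the 3 pairs. None reversed once called, and 41 values that were called under neither setting changed sign. Scaled to the mean of the complete assays, E18 minus E12 of miR-10a was -1.37. Over the assays measured in all samples, which leaves out miR-196b, the F test of miR-10b gave an adjusted p of 0.00196. P2 minus E18 was -3.13 and postnatal minus embryonic -1.55, the same values as in the main fit with a smaller SE. With a floor per sample, the F test of miR-196b gave 0.0179, adult minus E12 was 1.43, adult minus E18 1.45 and postnatal minus embryonic 1.19. With blanks as missing, adult minus E12 of miR-196b was 1.43. The cause of these changes was not tested.

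Leaving out 1 sample at a time, values for miR-10b ran from -6.63 to 0.37 for P2 minus E18, -4.52 to 2.49 for E18 minus E12, -2.04 to 4.97 for adult minus E18 and -2.43 to -0.68 for postnatal minus embryonic, with an adjusted p of 0.00847 to 0.657 in the F test. In these 4 differences the ends of the range come from leaving out one or the other E18 sample. For miR-10a, P2 minus E18 ran from -1.65 to -0.62. For miR-196b, adult minus E18 ran from 0.94 to 2.71, and postnatal minus embryonic ran from 0.56 to 1.49 and passed without P10 replicate 2. The within-sample difference of miR-10b and miR-10a ran from -1.73 to -0.59. The within-sample difference of miR-196b and miR-10b ran from 2.98 to 4.16 between postnatal and embryonic samples, and its exact p fell to 0.0286, unadjusted, without E12 replicate 2.

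Same-numbered samples of different ages did not deviate together (21 correlations from -0.23 to 0.11, median -0.02), so no pairing by number was seen. With 2 samples per age, this check cannot exclude one. With the replicate block, the F test of miR-10b had an adjusted p of 0.316, P2 minus E18 of miR-10b was -3.13 and postnatal minus embryonic of miR-196b was 1.03, and no call changed. With the card A run day as a fixed term, the F test, adult minus E12, E18 minus E12, E16 minus E14 and postnatal minus embryonic could not be fitted, since no day joins the E14 and the E16 samples. That fit, chosen after seeing the data, gave 2.06 for E18 minus E16 and 4.04 for adult minus E18 of miR-10b, where the fit without it gave -1.45 and 1.47. For miR-196b that fit rests on blanks placed at the floor. It gave 1.67 for P2 minus E18 and 7.18 for adult minus E18 (adjusted p = 0.0674 by limma). The 7.18 exceeds the span between the lowest measured ΔCT of miR-196b, 17.1, and the floor, 19.9. The fit without the run day gave -0.05 and 1.82. None of these was called. As a random block it left P2 minus E18 of miR-10b at -2.54. Values near the floor, above all those of miR-196b, are limited by detection, and the differences between the 3 miRNAs by steps of about 1 cycle.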
